A study of Mus musculus with 8 samples.

Results

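The small heat shock protein genes and the cochaperone gene *Bag3* were followed in the cerebellum of *Atm*-WT and *Atm*-KO mice. The set has 7 members of the 56691 genes counted, namely *Cryab*, *Hspb1*, *Hspb2*, *Hspb3*, *Hspb6*, *Hspb8* and *Bag3*. It was chosen as a family while its values in these same libraries were already known, so the differences between genotypes of the members are given as a description, and where counts of calls over the whole table include members nothing is read from them. Of the 7 members, 6 passed the filter on low counts, as did 22423 genes in all, and *Hspb2* did not.

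RNA from the cerebellum of 4 *Atm*-WT (*Atm* +/+) and 4 *Atm*-KO (*Atm* -/-) mice was sequenced in bulk, with a library for each mouse. All animals came from the *B6;129S4-Atmtm1Bal/J* line, in which matings of heterozygotes gave the *Atm*-KO mice and their *Atm*-WT littermates, and the study describes this RNA data set as taken at 6 months of age. Before collection the animals were perfused with saline through the heart, and the tissue was sequenced without sorting of cells. Because the targeted allele is carried in the whole body and sits on a mixed B6 and 129 background, loss of ATM in the cerebellum, loss of ATM elsewhere and sequence carried along beside the targeted allele cannot be told apart in this design.

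Libraries held between 65967130 and 88030300 counts. *Atm* itself had 67.6, 80.0, 79.4 and 59.0 CPM (counts scaled to a library of 1000000 with TMM factors) in *Atm*-WT mice 2M, 7M, 13M and 32M. In *Atm*-KO mice 1M, 7F, 11M and 12M it had 51.1, 44.3, 41.1 and 44.9 CPM, so that transcript remained in every *Atm*-KO mouse and the genotypes did not overlap. *Atm*-KO mouse 7F carries the letter F in its label and the other mice the letter M, and *Xist* stood at 910 CPM in 7F and at no more than 0.163 CPM elsewhere. Each library is taken as a separate mouse, which the labels imply by their numbers without saying so.

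Small heat shock proteins are chaperones that do not use ATP. They share the alpha-crystallin domain, form oligomers and hold partly unfolded proteins until the ATP-driven HSP70 machinery refolds or discards them. BAG3 joins these systems, since its BAG domain binds HSP70 proteins such as HSPA8 while other parts of it bind HSPB8 and related small heat shock proteins, and the complex passes damaged filament proteins to autophagy through STUB1 and SQSTM1. The stress factor HSF1 drives several of these genes by binding inverted repeats of the unit GAA in their promoters. In brain, alpha-B-crystallin is known mainly from oligodendrocytes and astrocytes, and the small heat shock proteins as a family are most abundant in muscle.

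Promoter sequence was looked at for the shortest such repeat, GAANNTTC, which reads the same on both strands, and for its mirror form, TTCNNGAA. RefSeq promoters (GRCm38.p6, 250 bases before to 50 bases after a start site) covered 5 of the 7 members in 6 windows. *Cryab* and *Hspb2* had no entry. GAANNTTC was present in 5 of the 6 windows (83.3%), which represent all 5 genes, and in 2582 of the 32851 promoters of the whole table (7.86%). Among the lists described further on, it was present in 8 of 21 windows of the HSF1 response chaperones (38.1%), in 4 of 10 of the partners of BAG3 (40%), and in 0 of 5 of the other BAG cochaperones, 0 of 11 of the filament clients and 0 of 3 of the other small heat shock proteins. The sequences below are shown because they are the repeats the members share. Each is printed in the direction of transcription with the repeat in capitals, and distances count from the RefSeq start site.

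*Hspb1*, first repeat: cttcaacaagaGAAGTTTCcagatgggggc
*Hspb1*, second repeat: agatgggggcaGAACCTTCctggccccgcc
*Hspb3*: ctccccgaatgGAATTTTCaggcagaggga
*Hspb6*, second start site: aagtaattattGAAGTTTCtaaataaggaa
*Hspb8*: agaagccaggaGAAGTTTCtaggctcgcga
*Bag3*: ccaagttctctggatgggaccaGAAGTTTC

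The windows of *Hspb1* lie on the plus strand at chr5:135887791-135887820 and chr5:135887811-135887840, and their repeats begin 117 and 97 bases before the start site. That of *Hspb3* lies on the minus strand at chr13:113663882-113663911, with the repeat 224 bases before the start. That of *Hspb6* lies on the plus strand at chr7:30553170-30553199, with the repeat 120 bases before the second of its start sites, and the window of the first start site had none. The repeats of *Hspb8* (minus strand, chr5:116422844-116422873) and *Bag3* (plus strand, chr7:128523603-128523632) begin 3 and 43 bases after the start, inside the transcript.

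The same 8 bases, GAAGTTTC, stood in *Hspb1*, *Hspb6*, *Hspb8* and *Bag3*. The mirror form TTCNNGAA occurred in 0 of the 6 windows and in 8.52% of all promoters. Runs of 3 units (GAANNTTCNNGAA or TTCNNGAANNTTC), the length usually given for a full heat shock element, also occurred in 0 of the 6, against 0.603% of all promoters, 5 of the 21 windows of the HSF1 response chaperones and 2 of the 10 of the partners of BAG3, both of *Dnajb6*. A match is a statement on letters in these windows and says nothing on binding.

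Across the members, 4 genes stood well above the rest in level. Per kilobase of exon, *Atm*-WT levels were 7.85 ± 2.34 CPM per kb for *Hspb1*, 7.70 ± 1.59 for *Bag3*, 7.66 ± 0.662 for *Hspb8* and 6.17 ± 1.76 for *Cryab* (mean ± SD, n = 4 mice). These 4 could not be ranked, because the ranges over mice overlapped for every pair. *Hspb6* followed at 0.721 ± 0.168, *Hspb3* at 0.369 ± 0.0728 and *Hspb2* at 0.0734 ± 0.0363 CPM per kb, and the ranges of these 3 did not overlap with each other or with the upper 4.

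**Figure D1:**
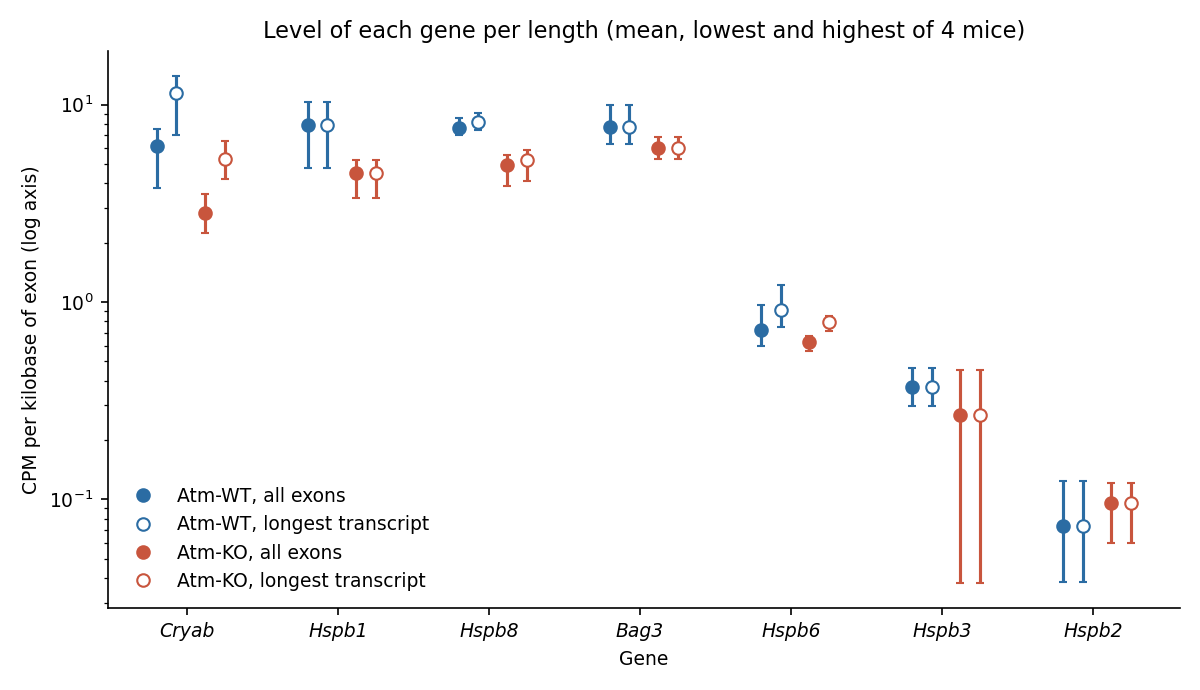
Level of each member in CPM per kilobase of exon, on a log axis, in *Atm*-WT (blue) and *Atm*-KO (red) mice. Points are means of 4 mice and bars run from the lowest to the highest mouse; filled points divide by all annotated exon bases and open points by the longest transcript. *Cryab* moves from 6.17 to 11.5 CPM per kb in *Atm*-WT with the choice of length, whereas *Hspb1*, *Hspb3* and *Bag3* hardly move.

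The place of *Cryab* in that order depends on the length it is divided by. Its exons in the annotation sum to 4400 bases, while its longest transcript has 2363, and with the latter its *Atm*-WT level became 11.5 CPM per kb, the highest mean of the 7. Its range over mice (7.02 to 13.97 CPM per kb) still overlapped with those of *Hspb1*, *Hspb8* and *Bag3*, so that these 4 could not be ranked by that length either. In *Atm*-KO mice the order over all exon bases was *Bag3* (6.05 ± 0.731 CPM per kb), *Hspb8* (4.92 ± 0.772), *Hspb1* (4.49 ± 0.872) and *Cryab* (2.84 ± 0.566). The ranges of *Bag3* and *Hspb8* overlapped there, as did those of *Hspb8* and *Hspb1* and of *Hspb1* and *Cryab*, while the range of *Cryab* lay below those of *Hspb8* and *Bag3*. By the longest transcript *Cryab* instead had 5.29 CPM per kb in *Atm*-KO (range 4.18 to 6.58). That range overlapped with those of *Hspb1*, *Hspb8* and *Bag3*, so the low place of *Cryab* in *Atm*-KO also depends on the length.

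*Cryab* (chromosome 9, 50651859 to 50668567, plus strand, GRCm39) encodes alpha-B-crystallin, the small heat shock protein that also serves as a lens protein and binds desmin and GFAP filaments. It had 33.0, 26.2, 16.6 and 32.9 CPM in *Atm*-WT mice 2M, 7M, 13M and 32M and 9.88, 15.5, 11.2 and 13.4 CPM in *Atm*-KO mice 1M, 7F, 11M and 12M. Every *Atm*-KO mouse lay below every *Atm*-WT mouse, although *Atm*-WT 13M came within about 1 CPM of *Atm*-KO 7F. The mean in *Atm*-KO was 46.0% of that in *Atm*-WT, with a log2 fold change (*Atm*-KO minus *Atm*-WT) of −1.12 (SE 0.21), and only 0.464% of the tested genes had a log2 fold change this low.

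*Hspb1* (chromosome 5, 135916760 to 135918417) encodes HSP27, which caps actin filaments and is induced by stress. It had 9.21, 10.7, 4.97 and 7.88 CPM in *Atm*-WT mice against 3.53, 5.49, 5.34 and 4.41 CPM in *Atm*-KO mice, in the same order of mice. The genotypes overlapped through a single mouse, since *Atm*-WT 13M lay below *Atm*-KO 7F and 11M. The log2 fold change was −0.80 (SE 0.23) with all mice and −0.97 without *Atm*-WT 13M.

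*Hspb8* (chromosome 5, 116546409 to 116561084) encodes HSP22, the partner of BAG3 in chaperone-assisted autophagy. It had 17.5, 19.2, 16.5 and 15.8 CPM in *Atm*-WT mice against 12.5, 12.3, 10.8 and 8.72 CPM in *Atm*-KO mice. The genotypes were separated by a wider gap than for *Cryab*, and the *Atm*-WT mice lay close together, with an SD of 1.49 CPM. Its log2 fold change was −0.64 (SE 0.12), and 2.72% of the tested genes had one as low.

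*Bag3* (chromosome 7, 128125283 to 128148705) had 19.8, 26.1, 18.3 and 16.5 CPM in *Atm*-WT mice against 13.9, 17.9, 17.0 and 14.5 CPM in *Atm*-KO mice. The groups overlapped, with *Atm*-KO 7F and 11M above *Atm*-WT 32M, and *Atm*-WT 7M stood above the other *Atm*-WT mice. The log2 fold change was −0.35 (SE 0.14), and without *Atm*-WT 7M it was −0.20. *Bag3* thus differed less than its partner *Hspb8*, and the ratio of *Hspb8* to *Bag3* CPM was 0.870 ± 0.0938 in *Atm*-WT against 0.705 ± 0.132 in *Atm*-KO mice (mean ± SD, n = 4 each). That ratio overlapped between genotypes, because *Atm*-KO 1M stood at 0.896 while the other *Atm*-KO mice ranged from 0.600 to 0.688.

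*Hspb6* (chromosome 7, 30251603 to 30256218) encodes HSP20, a partner of actin regulation in smooth and heart muscle. It had 3.80, 2.34, 2.55 and 2.62 CPM in *Atm*-WT mice against 2.45, 2.65, 2.22 and 2.53 CPM in *Atm*-KO mice. Apart from *Atm*-WT 2M the 2 genotypes covered the same range, and the log2 fold change of −0.20 (SE 0.19) became −0.03 without that mouse.

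*Hspb3* (chromosome 13, 113799432 to 113800212), a muscle and motor neuron member that pairs with HSPB2, was near the limit of detection. Its counts were 23, 19, 31 and 20 in *Atm*-WT mice against 29, 19, 16 and 2 in *Atm*-KO mice. The groups overlapped, and *Atm*-KO 12M had the lowest value. The log2 fold change of −0.45 (SE 0.53) became −0.10 without *Atm*-KO 12M, −0.82 without *Atm*-KO 1M and −0.78 with limma voom.

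*Hspb2* (chromosome 9, 50662378 to 50663858, minus strand) lies within the annotated span of *Cryab* on the other strand. It had 6, 6, 13 and 4 counts in *Atm*-WT against 6, 9, 10 and 10 counts in *Atm*-KO mice. At this depth no difference was detectable, and the filter on low counts kept it out of the test. The 7 alternative fits that kept it gave log2 fold changes from 0.15 to 0.54, with an SE of 0.53 to 0.71. Its exons cover 1219 bases, of which 757 are also exon of *Cryab* on the other strand, so that even these few counts may belong in part to its neighbour. The 4 relatives outside the set, *Cryaa*, *Hspb7*, *Hspb9* and *Odf1*, had at most 8 counts in any library, and none of them passed the filter.

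**Figure D2:**
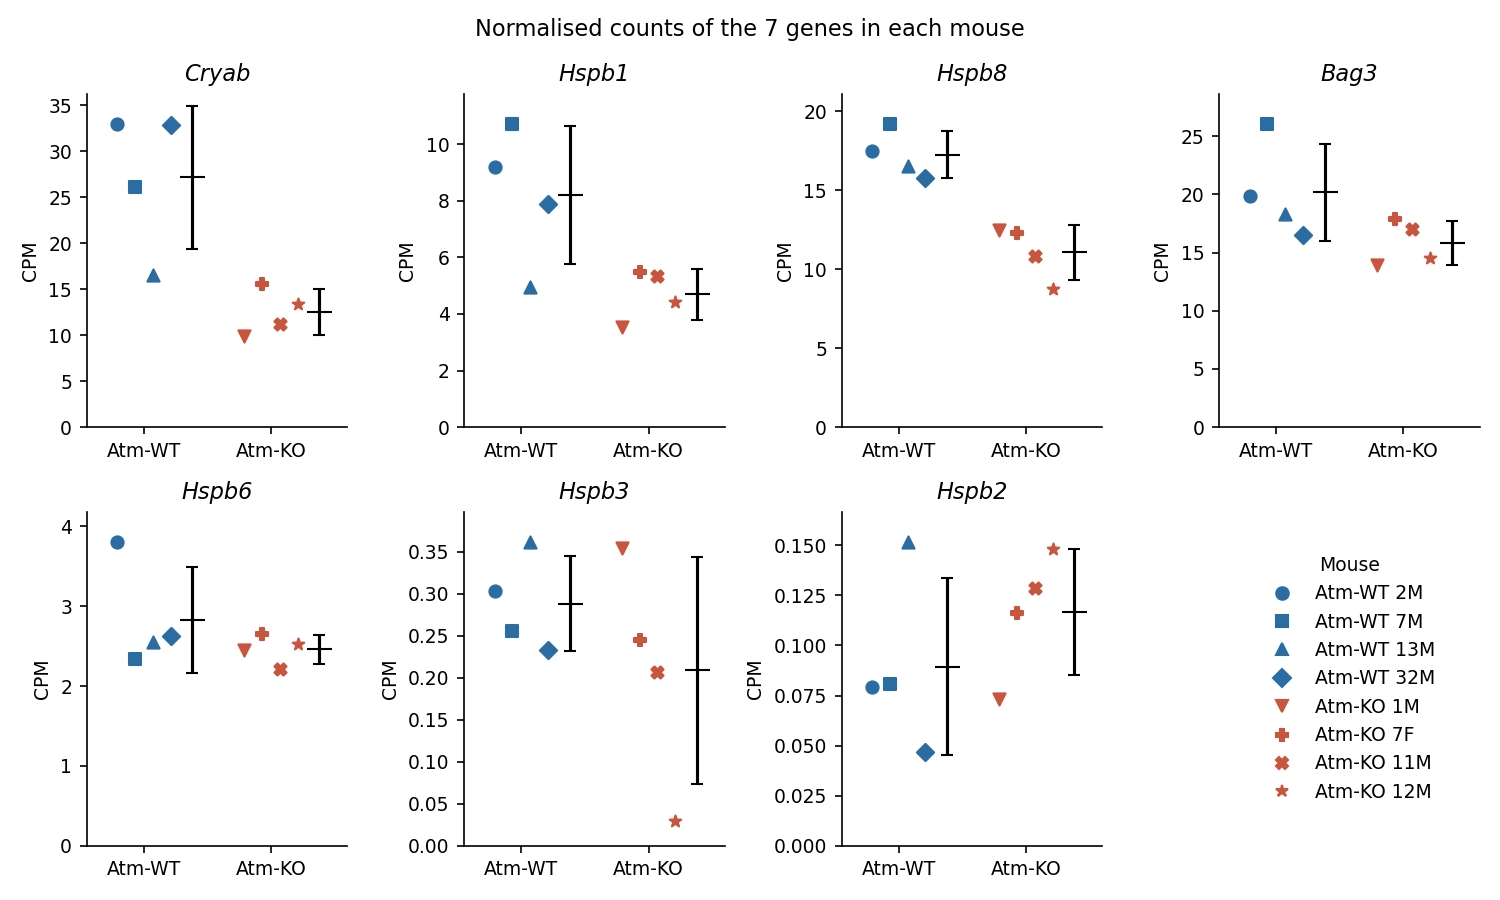
CPM of each member in each mouse, with *Atm*-WT in blue, *Atm*-KO in red and a symbol for each mouse; black marks give the mean ± SD of 4 mice and every axis starts at 0. *Cryab* (9.88 to 15.5 against 16.6 to 33.0 CPM) and *Hspb8* (8.72 to 12.5 against 15.8 to 19.2 CPM) show no overlap, and the other members do.

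Thus 2 of the 6 tested members lay lower in every *Atm*-KO mouse than in every *Atm*-WT mouse. Of all tested genes 1149 did so (5.12%), and 1450 (6.47%) lay higher in every *Atm*-KO mouse. All 6 log2 fold changes were negative, with a median of −0.54, while the median of all tested genes was −0.02. Since the family was chosen with these values known, neither the count nor the median is evidence on the members. For orientation on the whole table, edgeR's quasi-likelihood test placed 4 of 22423 genes (0.0178%) past both thresholds (adjusted p under 0.05 and absolute log2 fold change over 0.5), and no member is among them. *Atm*, the targeted gene, is not among them either (log2 fold change −0.66, SE 0.10, edgeR adjusted p = 0.0775). A gene that this test does not place there may therefore still differ. DESeq2 placed 3 of the 6 tested members, *Cryab*, *Hspb1* and *Hspb8*, past both in the lower direction, where it placed 0.902% of all its genes, and limma voom placed 0. At an unadjusted p under 0.05 in edgeR 4 of the 6 were lower and 0 higher, against 8.48% and 11.7% of all tested genes. As these counts rest on the values that chose the family, nothing is read from them.

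The mice did not hold 1 order across members. *Atm*-WT 13M was the lowest *Atm*-WT mouse for *Cryab* and *Hspb1* and the highest for *Hspb3* and *Hspb2*, and *Atm*-WT 7M was the highest for *Hspb1*, *Hspb8* and *Bag3*. Among *Atm*-KO mice, 7F was the highest for *Cryab*, *Hspb1*, *Hspb6* and *Bag3*, 1M was the lowest for *Cryab*, *Hspb1* and *Bag3*, and 12M was the lowest for *Hspb8* and *Hspb3*. Spread within a genotype was largest for *Hspb3* in *Atm*-KO (SD 1.23 in log2 CPM). It was 0.48 for *Hspb1* and 0.47 for *Cryab* in *Atm*-WT, and 0.12 for *Hspb8* in *Atm*-WT.

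*Cryab* and *Hspb2* are the members on the chromosome of *Atm*, at 2.68 Mb from it. The 4 named genes around *Cryab* had smaller log2 fold changes. *Dixdc1*, which ends about 1 kb before *Cryab* and encodes a Wnt pathway protein, ranged from 185 to 211 CPM in *Atm*-WT and from 155 to 193 CPM in *Atm*-KO mice, with a log2 fold change of −0.23 (SE 0.08, edgeR adjusted p = 0.155). On the other side *Cfap68* had a log2 fold change of −0.14 (SE 0.11), *Fdxacb1* of −0.07 (SE 0.12) and *Alg9*, a mannosyltransferase gene, of 0.01 (SE 0.08), and none of these 3 passed edgeR's test either, with adjusted p of 0.523, 0.764 and 0.962. Without *Atm*-WT 32M *Cfap68* had −0.05 and *Fdxacb1* −0.01, and without *Atm*-WT 13M *Fdxacb1* had −0.12.

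A gene a little farther away behaved more like *Cryab*. Over the 8 mice, and among 15738 genes with a mean of at least 1 CPM, the 3 profiles nearest to that of *Cryab* were those of *Ifitm3*, *Fxyd1* and *Pts*, with root mean square differences of 0.21, 0.22 and 0.24 in centred log2 CPM. *Pts*, an enzyme gene of tetrahydrobiopterin synthesis, lies 212 kb before *Cryab* on chromosome 9. It had 8.97 to 13.4 CPM in *Atm*-WT against 5.74 to 7.30 CPM in *Atm*-KO mice, with a log2 fold change of −0.90 (SE 0.15). Its likeness was selected from these same values, so no test is given. In the 10 Mb on either side of *Atm*, 29 of 259 tested genes (11.2%) lay lower in every *Atm*-KO mouse and 20 (7.72%) lay higher, with a median log2 fold change of −0.06, against 5.12%, 6.47% and −0.02 over all tested genes. The 29 include *Atm* itself, *Cryab*, which was chosen with its values known, and *Pts*, which was picked for its likeness to *Cryab*.

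Other members had other nearest profiles. *Hspb1* had *Hspa8* and *Lgals3bp* among its nearest, at a difference of 0.17 each, and *Cryab* came at rank 79 in its list, while *Hspb1* came at rank 11 in that of *Cryab*. *Hspb8* was most like *Rcn3*, *Spry4* and *Il17rc* (0.11, 0.12 and 0.14), and *Bag3* most like *Nfatc1*, *Cp* and *Ccbe1* (0.07, 0.08 and 0.08). *Hspb6* was nearest to *Eif4a-ps4*, *Sf3a2* and *Pold2*, and *Hspb3* to *Kcnip2*, *Cnih3* and *Zbtb7c*. A gene whose own profile is flat, such as *Hspb6*, is near to many others by this measure.

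Genes that work with the members were examined from lists that were also drawn up with earlier results of these data known. Of the 5 other BAG cochaperone genes, 0 passed both thresholds in edgeR, in DESeq2 or in limma voom, 1 had an unadjusted p under 0.05 and was lower, and none was higher at that level, where the shares over all tested genes were 8.48% lower and 11.7% higher. Their median log2 fold change was −0.13. *Bag1*, the HSP70 nucleotide exchange factor that steers clients to the proteasome, had 39.7 ± 6.57 CPM in *Atm*-WT against 31.2 ± 5.17 CPM in *Atm*-KO (log2 fold change −0.35, SE 0.14, edgeR adjusted p = 0.186), a size like that of *Bag3*. *Bag2*, an inhibitor of STUB1, had a log2 fold change of −0.17 (SE 0.13; −0.11 without *Atm*-WT 2M), and *Bag5*, named after its values were seen, was the gene of the list that lay lower in every *Atm*-KO mouse, at −0.13 (SE 0.07). For *Bag5* the highest *Atm*-KO mouse, at 38.8 CPM, nearly met the lowest *Atm*-WT mouse, at 38.9 CPM.

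Among the 10 partners of BAG3 and genes of selective autophagy, *Hspa8* had the largest difference. It encodes the constitutive HSP70 that BAG3 binds, and it lies on the chromosome of *Atm*, at 12.6 Mb from it. *Hspa8* had 1564, 1726, 1037 and 1469 CPM in *Atm*-WT against 721, 904, 824 and 915 CPM in *Atm*-KO mice. No *Atm*-KO mouse reached the lowest *Atm*-WT mouse, which was again 13M, and the log2 fold change was −0.79 (SE 0.14, edgeR adjusted p = 0.0931). Processed copies of *Hspa8* exist elsewhere in the genome, so the assignment of its reads is uncertain. *Sqstm1*, the autophagy receptor p62, was lower in every *Atm*-KO mouse, at 228 ± 27.6 against 186 ± 19.2 CPM (log2 fold change −0.30, SE 0.10, edgeR adjusted p = 0.14). The genotypes of *Sqstm1* nearly met, at 207.3 CPM in *Atm*-WT 7M and 206.9 CPM in *Atm*-KO 7F. Its log2 fold change became −0.21 without *Atm*-WT 32M.

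In that list edgeR and limma voom placed 0 of 10 genes past both thresholds, and DESeq2 placed 1, *Hspa8*, past them in the lower direction, against the same share of 0.902% over all its genes. At an unadjusted p under 0.05, 3 were lower and 0 higher by edgeR, against 8.48% and 11.7% of all tested genes. The list had a median log2 fold change of −0.14. *Dnajb6*, which is named after its values were seen and encodes a J-domain partner, was the third gene lower in every *Atm*-KO mouse (−0.18, SE 0.06). *Hdac6*, the deacetylase that carries aggregates to the aggresome, was higher in every *Atm*-KO mouse, with a log2 fold change of 0.13 (SE 0.06, edgeR adjusted p = 0.264). *Synpo2*, the muscle partner of BAG3, had a log2 fold change of 0.02 (SE 0.23), whose sign turned when single mice were left out.

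The clients of these chaperones among actin and intermediate filament genes had small log2 fold changes for the most part. Of 12 tested, 0 passed both thresholds with edgeR, DESeq2 or limma voom, 2 were lower and 0 higher at an unadjusted p under 0.05 (8.48% and 11.7% of all tested genes), and the median log2 fold change was −0.11. *Synm*, which encodes the intermediate filament protein synemin, was the gene of the list that lay lower in every *Atm*-KO mouse, with 44.6 ± 5.74 CPM in *Atm*-WT against 31.9 ± 7.96 CPM in *Atm*-KO (log2 fold change −0.48, SE 0.17, edgeR adjusted p = 0.154). *Flnc*, the filamin that BAG3 clears in muscle, had a log2 fold change of −0.36 (SE 0.18), while *Flna*, another actin cross-linker, had 0.21 (SE 0.12), and neither passed edgeR's test, with adjusted p of 0.284 and 0.327. These values moved when a mouse was left out. *Synm* became −0.32 without *Atm*-KO 12M, *Flnc* −0.19 without *Atm*-WT 7M, *Flna* 0.10 without *Atm*-WT 32M and 0.14 without *Atm*-KO 12M, and the median of the list −0.03 without *Atm*-WT 2M.

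The HSF1 response chaperones, of which 18 were tested, had a median log2 fold change of −0.23. By edgeR and limma voom 0 passed both thresholds, and DESeq2 placed 1 of 17, *Dnajb1*, past both in the lower direction, against 0.902% of all its genes. At an unadjusted p under 0.05 by edgeR 8 were lower and 1 higher, against 8.48% and 11.7% of all tested genes. *Dnajb1*, an HSP40 partner of HSP70 that is named for its DESeq2 call, had 46.8, 76.8, 39.7 and 47.3 CPM in *Atm*-WT against 34.9, 41.5, 36.3 and 33.4 CPM in *Atm*-KO mice. The genotypes overlapped, and its log2 fold change of −0.53 (SE 0.17, edgeR adjusted p = 0.139) became −0.29 without *Atm*-WT 7M, which stood highest. The largest differences belonged to *Hspa1b* and *Hspa1a*, the inducible HSP70 genes. *Hspa1a* had 5.91, 25.9, 3.80 and 4.25 CPM in *Atm*-WT against 4.20, 5.50, 4.72 and 4.26 CPM in *Atm*-KO mice, and *Hspa1b* 6.24, 32.6, 2.55 and 3.48 CPM against 2.82, 4.14, 4.96 and 4.74 CPM. Mouse *Atm*-WT 7M alone held the differences of *Hspa1a* and *Hspa1b*. The log2 fold changes of −1.09 for *Hspa1a* and −1.43 for *Hspa1b* became 0.00 and 0.03 without it and −0.56 and −0.63 with limma voom. The same mouse was the highest *Atm*-WT mouse for most genes of this list, and for *Hspb1*, *Hspb8* and *Bag3*. Reads of *Hspa1a* and *Hspa1b*, which are near-identical, cannot be assigned with certainty.

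*Hsf1* itself stood on the other side, with 24.2 to 29.3 CPM in *Atm*-WT against 30.5 to 34.4 CPM in *Atm*-KO. It was higher in every *Atm*-KO mouse (log2 fold change 0.29, SE 0.08, edgeR adjusted p = 0.116), though its exons overlap those of *Dgat1* and *Bop1* on the opposite strand. *Hsf2* had a log2 fold change of 0.19 (SE 0.09, edgeR adjusted p = 0.276) and overlapped between genotypes. *Dnajb4*, named after its values were seen, was the gene of the list lower in every *Atm*-KO mouse (−0.22, SE 0.06).

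**Figure D3:**
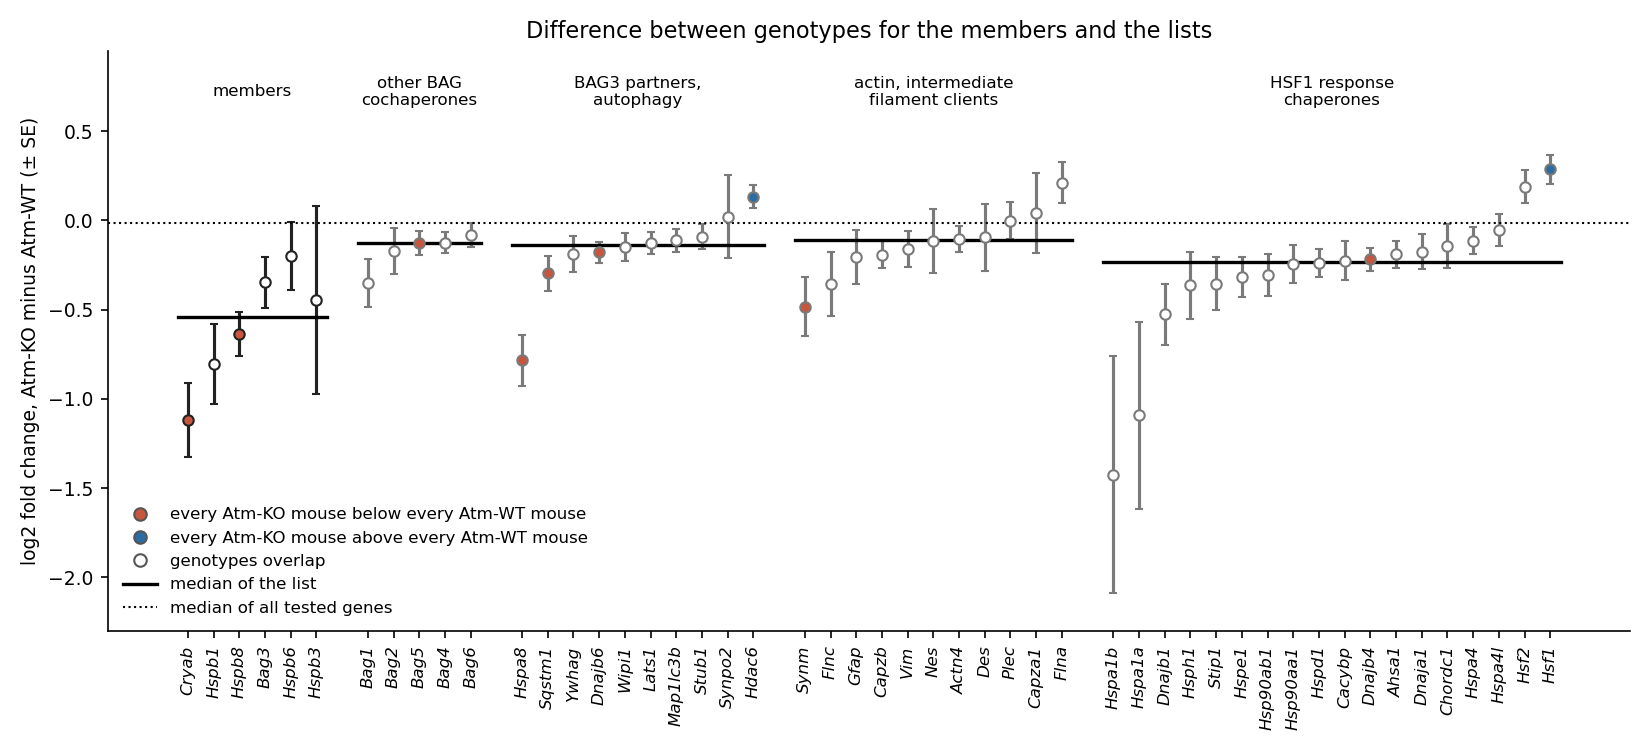
Log2 fold change (*Atm*-KO minus *Atm*-WT) with its SE for the 6 tested members and for tested genes of the 4 lists. Red points mark genes lower in every *Atm*-KO mouse and blue points genes higher in every one, thick bars are medians over all tested genes of each list and the dotted line is the median of all tested genes (−0.02). *Cryab* (−1.12) is the lowest member, *Hspa8* (−0.79) stands apart from the other partners of BAG3, and the long error bars of *Hspa1b* and *Hspa1a* come with the spread of *Atm*-WT mice.

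In bulk tissue, fewer cells of a type and less RNA per cell cannot be told apart. Markers of 13 cell types were therefore summed in the same libraries, and no marker was at 0 in every library. All 8 granule cell and all 8 Purkinje cell markers were detected, with medians of 0.07 and −0.09 in log2 fold change, which fits the label of cerebellum. The 8 astrocyte and Bergmann glia markers were all negative in sign (median −0.18), and summed to 2430 to 2638 CPM in *Atm*-WT against 2218 to 2450 CPM in *Atm*-KO. Of these 8, 2 lay lower in every *Atm*-KO mouse, against 5.12% of all tested genes, and 0 granule cell or Purkinje cell markers did.

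The 10 oligodendrocyte markers, the class best known for *Cryab*, summed to 3392 to 4444 CPM in *Atm*-WT against 2055 to 3520 CPM in *Atm*-KO. The lowest value belonged to 12M, while the other *Atm*-KO mice held 3261 to 3520 CPM. For 8 of the 10 the sign was negative, 2 lay lower in every *Atm*-KO mouse (5.12% of all tested genes did), and the median log2 fold change was −0.17. Per 1000 CPM of these markers, *Cryab* had 7.06 ± 1.79 CPM in *Atm*-WT against 4.33 ± 1.68 in *Atm*-KO, which is 61.3% in place of 46.0% and overlapped between genotypes. On the same scale *Hspb8* had 80.4% and *Bag3* 99.3% of its *Atm*-WT mean, both overlapping. In *Atm*-KO the highest ratio of each gene belonged to 12M, at 6.52 for *Cryab*, 4.24 for *Hspb8* and 7.07 for *Bag3*. The low marker sum of 12M thus raised these *Atm*-KO means.

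Whether such a ratio overlapped depended on the marker list. Of the 13 lists, 4 gave ratios of *Cryab* without overlap between genotypes. The *Atm*-KO mean of *Cryab* was 42.3% of the *Atm*-WT mean per granule cell markers, 47.2% per Purkinje cell markers, 47.3% per oligodendrocyte precursor markers and 55.5% per endothelial markers. For *Hspb8* there were also 4, at 61.5% per granule cell, 68.3% per Purkinje cell, 66.0% per precursor and 70.8% per astrocyte and Bergmann glia markers. *Bag3* had 1, at 80.6% per precursor markers, and the other members had 0. Per astrocyte and Bergmann glia markers *Cryab* had 49.98%, with an overlap that rested on *Atm*-WT values from 6.338 and *Atm*-KO values up to 6.343 CPM per 1000 CPM.

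Markers of the surface and the vessel wall had lower medians than those of neurons. The 7 meningeal fibroblast markers summed to 256 to 345 CPM in *Atm*-WT against 172 to 240 CPM in *Atm*-KO mice, without overlap, with 5 of 7 negative in sign and 2 lower in every *Atm*-KO mouse (5.12% of all tested genes were). Within each genotype the mice stood in the same order for this sum as for *Hspb1*, from 13M to 7M in *Atm*-WT and from 1M to 7F in *Atm*-KO, which was the only match among the 91 pairs of a member and a marker list compared in this way. Per 1000 CPM of these markers *Hspb1* had 26.9 ± 5.15 CPM in *Atm*-WT against 22.4 ± 1.30 in *Atm*-KO (83.5%), *Hspb8* had 93.8% and *Bag3* 114% of its *Atm*-WT mean, and *Cryab* kept the lowest share of these 4, at 66.8%. All 4 ratios overlapped between genotypes.

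The 8 smooth muscle markers summed to 35.6 to 52.0 CPM in *Atm*-WT against 25.0 to 36.0 CPM in *Atm*-KO (median log2 fold change −0.40, 3 of 8 lower in every *Atm*-KO mouse against 5.12% of all tested genes), and the 6 pericyte markers had a median of −0.27. Per 1000 CPM of smooth muscle markers *Cryab* had 63.9%, *Hspb1* 76.8%, *Hspb8* 85.4% and *Bag3* 104% of its *Atm*-WT mean. The 7 endothelial and 6 microglial markers had medians of −0.27 and −0.34, the 5 oligodendrocyte precursor markers −0.14, and the 6 choroid plexus markers −0.55 with a wide spread (786 to 1568 against 426 to 1221 CPM). Lower in every *Atm*-KO mouse were 3 of 6 microglial, 1 of 7 endothelial, 1 of 6 pericyte, 0 of 5 precursor and 0 of 6 choroid plexus markers.

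Skeletal muscle, where the family is best known, was nearly absent. Its 8 markers summed to between 0.470 and 1.19 CPM in *Atm*-WT and between 0.576 and 3.24 CPM in *Atm*-KO mice, and 6 of them did not pass the filter. Red blood cell markers summed to 5.87 to 42.9 CPM in *Atm*-WT against 7.80 to 49.5 CPM in *Atm*-KO (median 0.61), and *Hbb-bs* and the other globin genes are close copies. DESeq2 placed 3 of 8 smooth muscle markers (*Acta2*, *Tagln* and *Lmod1*), 1 of 7 endothelial (*Ly6c1*), 1 of 7 meningeal fibroblast (*Apod*) and 1 of 6 microglial markers (*C1qa*) past both thresholds, all lower in *Atm*-KO, against 0.902% of all its genes, and no marker of the other 9 lists. By edgeR and limma voom 0 of the 86 tested markers passed both, and at an unadjusted p under 0.05 in edgeR 26 were lower and 1 higher, against 8.48% and 11.7% of all tested genes. The part of any of these cell types in the differences of *Cryab*, *Hspb1*, *Hspb8* and *Bag3* was not tested.

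**Figure D4:**
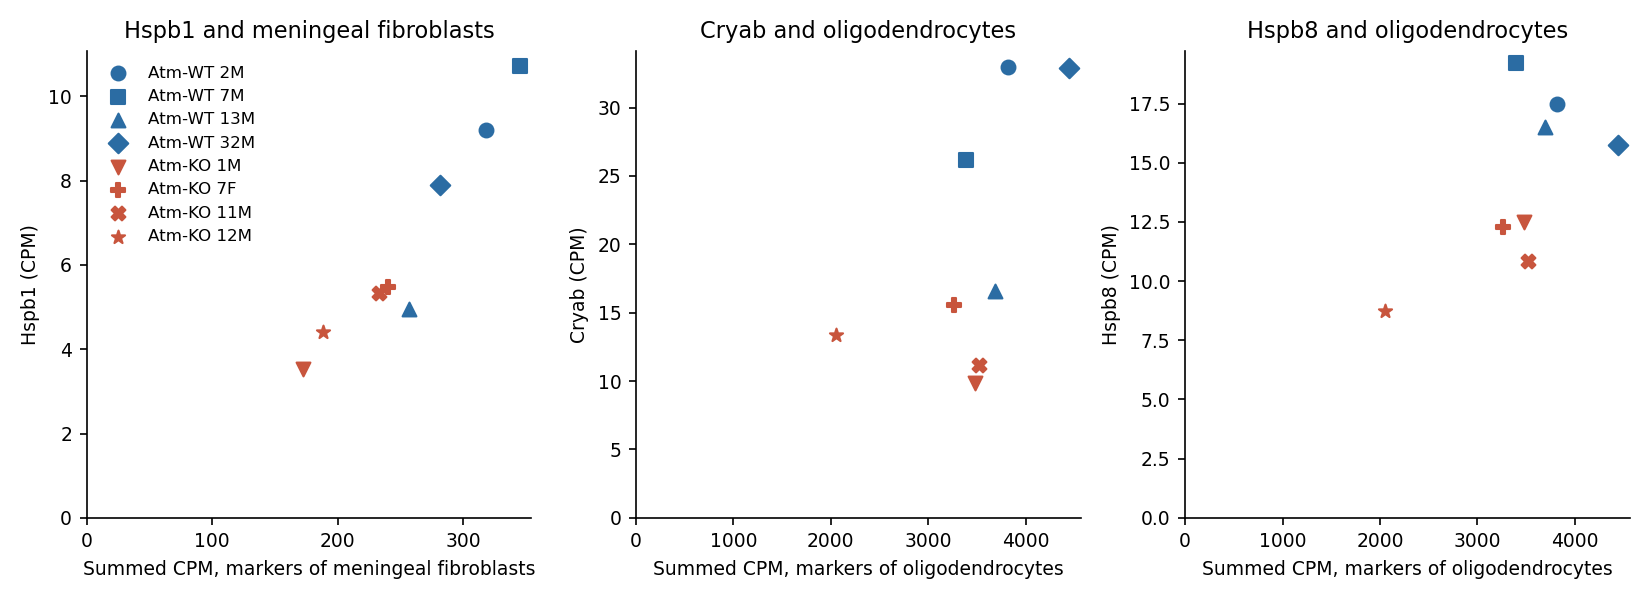
CPM of *Hspb1*, *Cryab* and *Hspb8* in each mouse against the summed CPM of markers of meningeal fibroblasts or oligodendrocytes; blue is *Atm*-WT, red is *Atm*-KO, and both axes start at 0. The fibroblast sums of the *Atm*-KO mice (172 to 240 CPM) lie below those of the *Atm*-WT mice (256 to 345 CPM), and the oligodendrocyte sums overlap (2055 to 3520 against 3392 to 4444 CPM). *Atm*-WT 13M has less *Hspb1* (4.97 CPM) than *Atm*-KO 7F (5.49 CPM) at a higher fibroblast sum.

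Annotation sets a limit on these values. The sources do not say whether strand was used in counting, so reads of genes that overlap on opposite strands cannot be told apart. Of the 4400 exon bases of *Cryab* 1856 are shared with *2310030G06Rik*, *Hspb2*, *Gm67659* or *Gm67675*, and 486 of 2619 of *Bag3*, 224 of 2252 of *Hspb8* and 739 of 3924 of *Hspb6* are shared with other genes, whereas *Hspb1* and *Hspb3* share none.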

How the data were processed

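RNA of frozen cerebella was sequenced through Novogene. Per the paper and the submitters' notes, the authors checked reads with FastQC 0.11.9, aligned them with STAR to GRCm39 with GENCODE Release 28, and deposited raw featureCounts counts per gene without normalization. Strand and pair settings are not given in the sources used here. Between 67.3% and 73.3% of counts from 1 to 50 were even, so whether a count is a read or a fragment was not settled.

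Identifiers were matched to the GENCODE M39 annotation (56017, 98.8%). Genotypes were compared by the quasi-likelihood test of edgeR 4.0.16 (glmQLFit, glmQLFTest; R 4.3.3), after filterByExpr and TMM scaling, over all 8 libraries without covariates, with two-sided p-values and Benjamini-Hochberg adjustment over 22423 genes. CPM used TMM factors, and log2 CPM for profiles and SDs a prior count of 2. The procedure was tested on simulated counts. Alternatives were DESeq2 1.42.0, limma voom 3.58.1, RLE factors, total counts alone, no filter, at least 10 counts in every library, the longest transcript as length, and each mouse left out in turn.

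The members and gene lists were chosen with earlier results of these data known. Named genes were the members, *Atm*, in each list any gene past both thresholds and the 2 largest decreases and 2 largest increases at a mean of at least 1 CPM, genes at that level within 100 kb of *Cryab*, and the 3 nearest profiles of each tested member; exceptions are marked, and 2 genes that the rule names are not reported here. Promoters came from RefSeq on GRCm38.p6, another build than that of the counts. With 4 mice per genotype, p-values measure the spread between these mice.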

Additional observations from a re-analysis of the deposited data

Results flagged for a closer look

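Among 78 groups of 4 mice examined, 3 held a mouse far from the other mice of its genotype, where chance alone would give about 3.9 (1 in 20). *Hspa1b* stood at 32.56 CPM in *Atm*-WT mouse 7M, with the other *Atm*-WT mice from 2.55 to 6.24 CPM. *Hspa1a* stood at 25.95 CPM in the same mouse, with the others from 3.80 to 5.91 CPM. Endothelial markers summed to 218.8 CPM in *Atm*-WT mouse 13M and to between 251.7 and 256 CPM in the other *Atm*-WT mice. None of the values of the 7 members stood apart by this measure, although 7M was the highest *Atm*-WT mouse for *Hspb1*, *Hspb8* and *Bag3* and 13M the lowest for *Cryab* and *Hspb1*. The cause of these values was not tested.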

How the results depend on the processing

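No paired analysis was possible because the genotypes share a single number in the labels, that of *Atm*-WT 7M and *Atm*-KO 7F, and nothing in the labels pairs these mice. All log2 fold changes of the 6 tested members kept their sign under every alternative that could be fitted, and their median ranged from −0.42 to −0.69. *Hspb2* was also kept by 7 of the alternatives (DESeq2, no filter and 5 with a mouse left out), with log2 fold changes from 0.15 to 0.54. *Hspb3* could not be fitted with at least 10 counts in every library, where it is not kept. The number of genes past both thresholds, 4 in edgeR, was 994 with DESeq2, 435 without a filter, 2 with at least 10 counts in every library, and from 1 to 27 when a mouse was left out, with the 27 coming without *Atm*-WT 13M. Among the members the count of 0 became 3 with DESeq2 (*Cryab*, *Hspb1* and *Hspb8*). In the list of BAG3 partners the count of 0 became 1 with DESeq2, 1 without a filter, and 0 to 1 when a mouse was left out (1 without *Atm*-WT 13M). In the HSF1 response list it became 1 with DESeq2. When a mouse was left out, the log2 fold change ranged from −0.020 to 0.073 for *Alg9* (negative without *Atm*-WT 2M or 7M), from −1.35 to 0.0033 for *Hspa1a* and from −1.74 to 0.027 for *Hspa1b* (both above 0 without *Atm*-WT 7M), and from −0.16 to 0.17 for *Synpo2* (negative without *Atm*-WT 7M or 32M or *Atm*-KO 7F or 12M), and in these the sign turned. With total counts alone the median of all tested genes moved from −0.02 to 0.03, and the list medians became −0.06 for filament clients, −0.09 for BAG3 partners, −0.08 for the other BAG cochaperones and −0.19 for HSF1 response chaperones. The cause of the other changes was not tested. With 4 mice per genotype and at most 31 counts of *Hspb3* and 13 of *Hspb2* per library, depth limits what can be said of these 2 genes.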
